A study of Arabidopsis thaliana with 18 samples.

Results

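A set of 120 probe sets for 119 Arabidopsis thaliana genes rose in wild-type cotyledons cultured to form vascular cells and stood lower in 2 mutants of BES1 after the same culture. The set was chosen from these measurements by a rule. A probe set annotated with a single gene was a member if the mean log2 signal of the wild type was at least 1.5 higher at 72 h than at 0 h, and if each mutant at 72 h was at least 1 below the wild type in the mean and lower in all 3 same-numbered replicates. The arrays held 38408 probe sets, of which 16722 had a single gene, and 131 of these met the numbers. The rule left out by name 16 genes, among them the xylan genes IRX15 and GUT2. Of those 16, 11 met the numbers, with IRX15 among the 11 and GUT2 not. A further 109 probe sets met the numbers but are annotated with several genes or none, so they are not members. Members made up 10.1% of the 1194 single-gene probe sets with a wild-type rise of at least 1.5; the other 1074 are called the other induced probe sets below.

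The 3 genotypes were WT (wild type of the Col strain), bes1-1 and bes1-3, both of the latter with a T-DNA insertion, each sampled as whole cotyledons of 6-day-old plants at 0 h, without culture, and at 72 h in VISUAL. The medium used for all 3 genotypes in the 72 h groups contained 1.25 mg/L of 2,4-D (an auxin), 0.25 mg/L of kinetin (a cytokinin) and 10 µM of bikinin, which blocks GSK3-like kinases. Each of the 6 groups had 3 arrays, and no source used here says that replicates were separate cultures, so p-values cover only the spread among these arrays, part of which may be technical. The medium acted on every 72 h sample, so culture and hormone treatment cannot be told apart in any rise described here. A cotyledon holds mesophyll, epidermis and veins, and in such bulk samples fewer cells of a type and less RNA per cell cannot be told apart.

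VISUAL is an in vitro system in which leaf mesophyll cells are led through a procambium-like state to xylem and phloem cells. BES1, a transcription factor at the end of the brassinosteroid pathway, is phosphorylated and restrained by GSK3-like kinases and is known to act in vascular differentiation. The comparison of WT with the mutants in this system asks which parts of the response differ when BES1 is mutated. The BES1 transcript was not analysed here, since the platform table names no probe set for it, so the genotypes were not checked by it.

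The deposited values were not on a single scale. Array medians were 5.189 to 5.464 in the 6 arrays numbered replicate 1, against 5.913 to 6.254 in the other 12, and each replicate number held an array of every group. Values are log2 signal, given for replicates 1, 2 and 3 in that order, so the first value of most groups is the lowest. Where groups are said to overlap below, a replicate 1 array can stand against an array of another number, across these scales. Means are given ± SD with n = 3 arrays. A group mean under the mean lower quartile of its own arrays, which lay between 3.73 and 3.83, is called close to background.

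All values that the rule used (WT at both times and both mutants at 72 h against WT) are given as a description. The median WT induction of the members, 72 h minus 0 h, was 2.87, with a range of 1.5 to 8.18, against 2.48 in the other induced probe sets. The median induction was 0.71 in bes1-1 and 1.36 in bes1-3 among members, and 2.22 and 2.60 among the other induced probe sets. At 72 h the median of bes1-1 minus WT was -2.11 (range -4.02 to -1.14), which puts bes1-1 at a median of 23.1% of the WT signal. The median of bes1-3 minus WT was -1.38 (range -3.15 to -1.0), which is 38.3% of the WT signal. The other induced probe sets had medians of -0.46 and -0.14, and all probe sets had medians of 0.09 and 0.07.

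The 3 replicate numbers gave similar sizes. The median over members of bes1-1 minus WT at 72 h was -2.05, -2.23 and -1.89 in replicates 1, 2 and 3, and that of bes1-3 minus WT was -1.36, -1.46 and -1.46. Limma's fit over all probe sets, with Benjamini-Hochberg adjustment, called 52 members lower in bes1-1 and 9 lower in bes1-3 at an adjusted p under 0.05, where 0.599% and 0.0729% of all probe sets were called lower. With the replicate number as a block it called 120 and 109, against 6.3% and 3.46% of all probe sets. In the WT induction 114 members were called higher, and 120 with the block, against 8.7% and 18.9% of all probe sets. The counts against WT at 72 h without the block rested on single arrays: omission of 1 array gave 13 (without WT replicate 2) to 67 (without WT replicate 1) in bes1-1, with 16 without WT replicate 3 and 27 and 33 without bes1-1 replicates 1 and 2, and 0 to 15 in bes1-3. In bes1-3 the count was 0 without bes1-3 replicate 1, WT replicate 2 or WT replicate 3, 3 and 1 without bes1-3 replicates 2 and 3, and 15 without WT replicate 1. A fit of only the groups compared called 0 in each mutant. It put 114 and 93 members at an unadjusted p under 0.05, where 7.48% and 4.7% of all probe sets lay. The rule used these contrasts, so these calls are no evidence about the members.

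**Figure D1:**
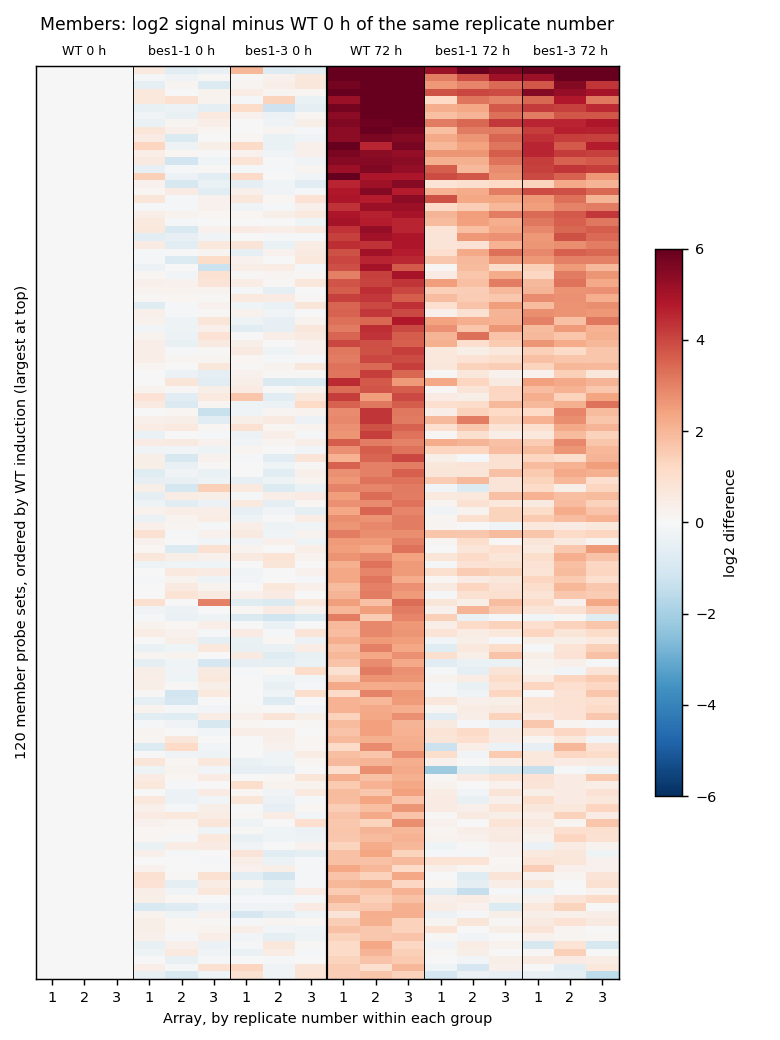
Log2 signal of the 120 member probe sets (rows, largest WT induction at the top) on each of 18 arrays (columns, by group and replicate number), minus the WT 0 h array of the same replicate number; the colour scale is log2 and ends at -6 and 6. In most rows the WT 72 h columns are the reddest, bes1-3 at 72 h is intermediate, bes1-1 at 72 h is paler, and the 0 h columns are near 0.

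AT2G14095 had the largest mean difference between WT and the mutants. Its signal in WT was 2.76, 4.09 and 3.99 at 0 h and 7.31, 9.16 and 9.43 at 72 h. At 72 h it was 3.59, 5.07 and 5.2 in bes1-1 and 4.11, 6.34 and 6.01 in bes1-3. Every WT array at 72 h lay above every mutant array at 72 h, and the mutants stood at 6.2% and 11.3% of the WT signal. Its 0 h means were close to background in all 3 genotypes, which leaves the size of the rise uncertain.

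AT2G18490 followed. It rose in WT from 2.18, 2.29 and 3.20 to 7.35, 9.59 and 9.28, and reached 3.36, 5.5 and 6.17 in bes1-1 and 5.63, 7.08 and 6.38 in bes1-3. The WT arrays lay above all mutant arrays, and bes1-1 and bes1-3 overlapped each other. Its 0 h means were close to background in all 3 genotypes. The next 5 members in this order were AT4G23110, AT2G34340, AT4G18425, AT5G59845 and AT2G44260. Their differences from WT at 72 h ran from -3.18 to -3.63 in bes1-1 and from -2.09 to -2.81 in bes1-3. AT4G23110 reached 5.18, 6.91 and 6.33 in WT at 72 h, while both mutant means at 72 h (2.87 ± 0.75 and 3.33 ± 0.99) stayed close to background. The gene table gives no role for these 7 loci.

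The 4 members with the largest WT inductions, AT2G31540, AT5G40020, AT5G59845 and AT4G16015, kept over 50% of the rise in both mutants. The next in that order kept less in bes1-1: AT2G18490 kept 30.2% and 56.9%, and AT4G18425, with a WT induction of 5.84, kept 41.0% and 60.4%, while AT4G08160 kept 53.3% and 74.8%. AT2G31540 had a WT induction of 8.18, from 1.38, 3.82 and 3.25 to 9.91, 11.59 and 11.5. It reached 6.56, 9.80 and 8.89 in bes1-1 and 8.07, 10.25 and 10.54 in bes1-3, which is an induction of 5.76 and 6.59. These are 70.4% and 80.6% of the WT induction on the log2 scale. Its 0 h means were close to background in all 3 genotypes, so the sizes of these rises and the shares are uncertain. The bes1-3 arrays at 72 h overlapped those of WT.

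AT5G40020 showed the tightest WT values of this group. It was at 3.77, 3.70 and 3.64 in WT at 0 h and at 11, 11.52 and 11.40 at 72 h. At 72 h it was at 6.83, 7.62 and 8.71 in bes1-1 and at 8.92, 9.92 and 9.65 in bes1-3. The 3 genotypes at 72 h did not overlap, in the order WT, bes1-3, bes1-1, and the mutants kept 54.0% and 72.1% of the WT induction. AT5G59845 rose by a mean of 6.61 in WT, 3.38 in bes1-1 and 4.11 in bes1-3. In both genes the WT and bes1-1 means at 0 h were close to background, so their rises and shares are uncertain in size.

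AT4G16015 was at 3.21, 4.99 and 5.27 in WT at 0 h and 10.03, 11.08 and 11.32 at 72 h, with 7.04, 9.02 and 9.20 in bes1-1 and 8.71, 10.26 and 10.25 in bes1-3. Its mutants kept 58.0% and 79.3%. AT3G14170, named for its high share, kept 61.4% and 79.7%, with means at 72 h of 10.28 ± 0.53 in WT, 8.12 ± 0.80 in bes1-1 and 9.17 ± 0.42 in bes1-3. In both genes each mutant array lay under the WT array of its replicate number, as the rule requires, and the bes1-3 values overlapped the WT values in AT4G16015 alone.

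**Figure D2:**
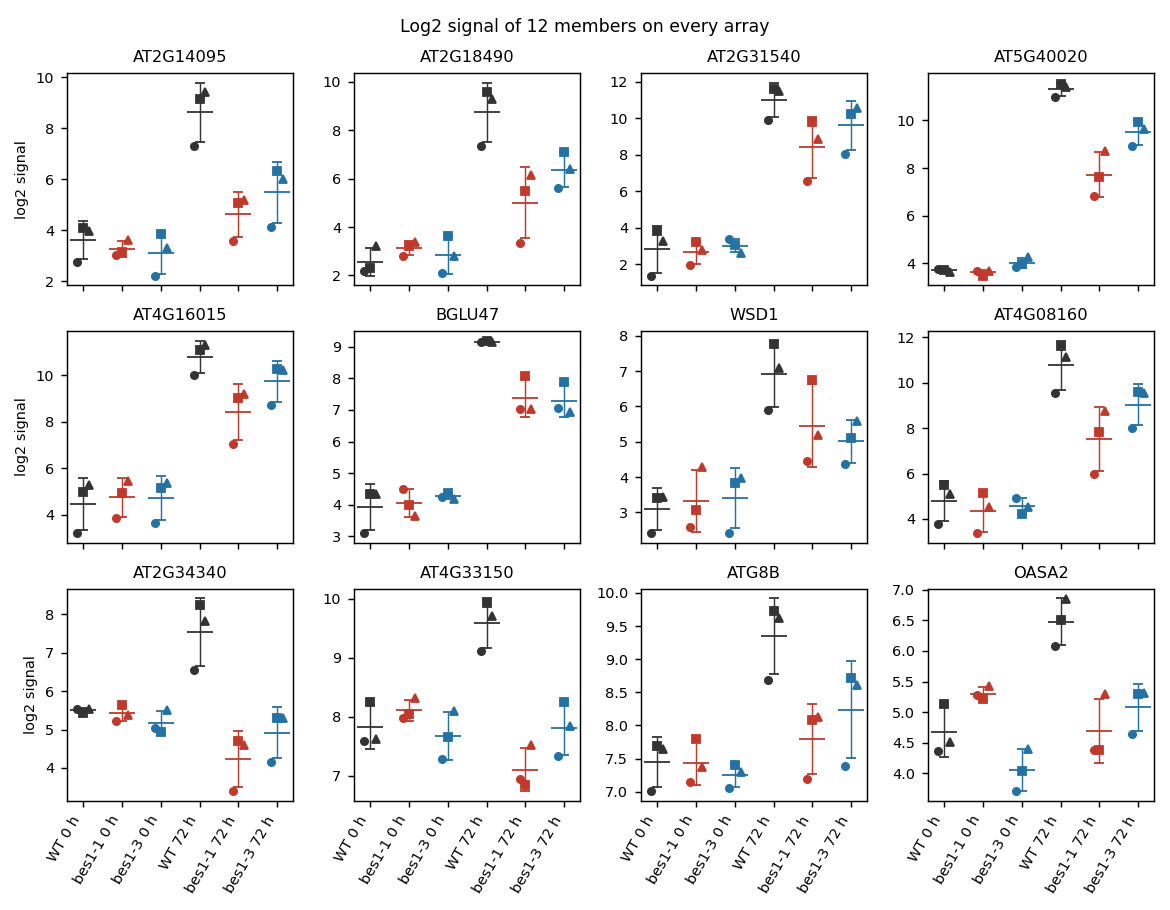
Log2 signal of 12 members on every array, by group; circles, squares and triangles are replicates 1, 2 and 3, the horizontal line is the mean and the bar is ± SD (n = 3). The vertical scale differs between panels. In AT5G40020 the 3 genotypes separate at 72 h, and in AT2G34340 the mutant means at 72 h lie under those at 0 h.

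A smaller set had no rise left in the mutants. The mean at 72 h was not above the mean at 0 h in 20 members in bes1-1 and in 5 members in bes1-3. AT2G34340 was at 5.53, 5.43 and 5.54 in WT at 0 h and at 6.56, 8.24 and 7.82 at 72 h. In bes1-1 it was at 5.23, 5.64 and 5.39 at 0 h and at 3.4, 4.69 and 4.60 at 72 h, so no array at 72 h reached those at 0 h. In bes1-3 it was at 5.04, 4.94 and 5.52 at 0 h and at 4.15, 5.29 and 5.30 at 72 h, and the times overlapped. Its change over culture was 2.04 in WT, -1.19 in bes1-1 and -0.25 in bes1-3.

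AT4G29700 had a change of 1.5 in WT, at the bound of the rule, with -0.10 in bes1-1 and -1.34 in bes1-3. Its 0 h values spread widely between replicates, at 5.66, 7.56 and 7.74 in WT, 5.21, 6.66 and 7.48 in bes1-1 and 6.57, 7.37 and 8.56 in bes1-3. AT3G02590, with a change of 1.51 in WT, had -0.75 and -0.62 in the mutants, whose 72 h means (3.08 ± 0.83 and 3.4 ± 0.84) were close to background. The other 2 members with no rise in bes1-3 were AT3G58290 at -0.12 and AT5G03820 at -0.58. AT3G58290 was close to background in every group except WT at 72 h. AT5G03820 was close to background in bes1-3 at 72 h (3.45 ± 0.72) and in bes1-1 at 0 h, so the changes of both genes are uncertain in size.

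Across all members the share of the WT induction kept had a median of 25.4% in bes1-1 (range -58.3% to 70.4%) and 47.9% in bes1-3 (range -89.3% to 80.6%), on the log2 scale. The medians for the other induced probe sets were 78.1% and 95.6%. Under 50% was kept by 100 members in bes1-1, by 62 in bes1-3 and by 59 in both. A rise of at least 1.5, the size the rule asks of WT, was reached by 36 members in bes1-1 and 53 in bes1-3, and all 36 were among the 53. At 72 h 66 members were at least 2 below WT in bes1-1 and 18 in bes1-3, and those 18 were all among the 66.

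**Figure D3:**
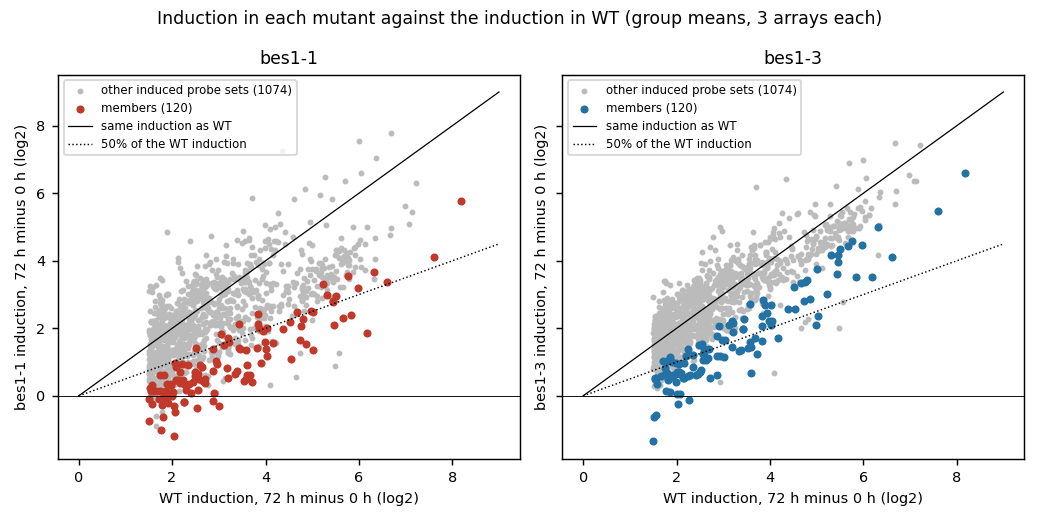
Induction (72 h minus 0 h, log2, means of 3 arrays) in bes1-1 (left) and bes1-3 (right) against that in WT, for 120 members (coloured) and 1074 other induced probe sets (grey), with lines for equal induction and for 50% of it. The choice of members puts them under the line of equal induction, with a median share of 25.4% in bes1-1 and 47.9% in bes1-3.

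Of the 120 member probe sets, 118 match a protein-coding locus of the TAIR10.1 gene table, 9 of these carry a symbol other than the locus, and none has values identical to another probe set. AT3G22070 is represented by 2 probe sets, which differed from WT at 72 h by -2.15 and -1.62 in bes1-1 and by -1.27 and -1.13 in bes1-3. The roles below are textbook background for the members that the table names.

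AT4G08160, listed under the synonym ATXYN3, encodes a xylanase, a class of enzyme that cuts xylan. It rose in WT from 3.80, 5.48 and 5.08 to 9.55, 11.62 and 11.14, and reached 6.00, 7.82 and 8.75 in bes1-1 and 7.99, 9.58 and 9.54 in bes1-3. All bes1-1 arrays lay under all WT arrays, while the highest bes1-3 array just passed the lowest of WT. The mutants stood at 10.6% and 30.1% of WT. BGLU47 encodes a beta-glucosidase, which releases glucose from glycosides. It was at 3.10, 4.35 and 4.33 in WT at 0 h and at 9.13, 9.19 and 9.16 at 72 h, against 7.03, 8.06 and 7.04 in bes1-1 and 7.07, 7.88 and 6.94 in bes1-3. The mutants overlapped each other and did not overlap WT, at 29.1% and 27.5% of its signal.

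WSD1, a wax ester synthase of the cuticle, was at 5.90, 7.76 and 7.10 in WT at 72 h, 4.45, 6.74 and 5.18 in bes1-1 and 4.37, 5.10 and 5.58 in bes1-3. The bes1-1 arrays overlapped WT and the bes1-3 arrays did not. Its 0 h means were close to background in all genotypes. CYP718, a cytochrome P450, had 72 h means of 6.75 ± 0.06 in WT, 5.54 ± 0.23 in bes1-1 and 5.54 ± 0.98 in bes1-3, and both mutants were at 43.3% of WT.

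AT4G33150 and OASA2 had lower means at 72 h than at 0 h in bes1-1. AT4G33150, listed as LKR/SDH, encodes the bifunctional enzyme that starts lysine breakdown. It was at 7.59, 8.25 and 7.62 in WT at 0 h and 9.12, 9.93 and 9.71 at 72 h. In bes1-1 it went from 7.97, 8.04 and 8.31 to 6.94, 6.85 and 7.52, and in bes1-3 from 7.28, 7.65 and 8.09 to 7.33, 8.25 and 7.84. The bes1-1 arrays at 72 h lay under those at 0 h, and the bes1-3 arrays overlapped between times; the changes were 1.77 in WT, -1.0 in bes1-1 and 0.14 in bes1-3. OASA2, an isoform of O-acetylserine (thiol) lyase, the enzyme family of the last step of cysteine synthesis, changed by 1.80 in WT, -0.62 in bes1-1 and 1.03 in bes1-3. GSTF3, a glutathione S-transferase, was at 42.0% of WT in bes1-1 and 47.4% in bes1-3 at 72 h.

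ATG8B encodes a ubiquitin-like protein that is attached to the membrane of the autophagosome, the vesicle that carries cell contents to the vacuole for breakdown. It was at 7.01, 7.69 and 7.64 in WT at 0 h and at 8.69, 9.73 and 9.62 at 72 h. It reached 7.19, 8.08 and 8.12 in bes1-1 and 7.39, 8.72 and 8.61 in bes1-3. The WT and bes1-3 arrays overlapped by a narrow margin, and those of WT and bes1-1 did not. The overlap set WT replicate 1 (8.69) against bes1-3 replicate 2 (8.72), and each bes1-3 array lay under the WT array of its number, as the rule requires. The mutants kept 18.7% and 52.0% of the WT induction.

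The receptor-like kinase gene NCRK was at 20.1% of WT in bes1-1 and 38.6% in bes1-3 at 72 h. M17, a gene known from late seed maturation, rose in WT from 4.03, 4.47 and 4.68 to 6.59, 7.01 and 7.71 and stood at 4.18, 5.54 and 4.75 in bes1-1 and 4.76, 4.99 and 4.85 in bes1-3, or 20.6% and 21.2% of WT, with every mutant array under every WT array. AtS40-3, of a plant family named from senescence, kept -0.6% and 2.4% of a WT induction of 2.00. Its means were close to background in every group except WT at 72 h (4.13 ± 0.77).

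Before culture no member was called different between a mutant and WT. The mutant arrays at 0 h were not used by the rule, while the WT arrays at 0 h were. Limma called 0 members different in bes1-1 minus WT at 0 h, where 0.0208% of all probe sets were called, and 0 in bes1-3 minus WT, where 0.00781% were called; the replicate block also gave 0 and 0, where it called 0.107% and 0.0156% of all probe sets. At an unadjusted p under 0.05 there was 1 member in bes1-1 and 0 in bes1-3, or 0.833% and 0% of members against 2.33% and 0.948% of all probe sets, and with the block there were 7 and 8, where 10.7% and 5.21% of all probe sets lay there. The median difference over members was 0.07 in bes1-1 (range -0.67 to 1.33) and 0.04 in bes1-3 (range -0.98 to 0.61). The mean was higher than WT in 74 members in bes1-1, which is 61.7%, as in 62.8% of the other induced probe sets and 50.1% of all, and in 69 members in bes1-3, which is 57.5%, against 48.0% and 50.8%.

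Single replicates did not share a direction. The median over members of bes1-1 minus WT at 0 h was 0.19, -0.07 and 0.13 in replicates 1, 2 and 3, and that of bes1-3 minus WT was 0.04, -0.11 and 0.12. The largest difference in bes1-1 was at AT1G20680, with 6.57, 6.86 and 8.08 in bes1-1 and 5.59, 6.86 and 5.06 in WT, where the ranges overlapped. It was 1.33 ± 0.46 (SE) by limma, with an adjusted p of 1.0. In bes1-3 the largest was at AT4G03930, with 4.07, 3.21 and 3.33 against 4.96, 4.41 and 4.17 in WT, a difference of -0.98 ± 0.62 (SE) with an adjusted p of 1.0. Its bes1-3 arrays all lay under those of WT, as in 1.7% of members and 1.16% of all probe sets. The bes1-3 mean there (3.54 ± 0.47) was close to background.

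Neither mutant's 0 h arrays entered the rule, so bes1-1 against bes1-3 at 0 h is independent of it. Limma called 0 members, where 0.0703% of all probe sets were called, and 4 had an unadjusted p under 0.05, or 3.33% of members and 3.16% of all probe sets. The median difference was -0.01, and bes1-1 was the lower in 62 of 120. With the replicate block OASA2 alone was called, higher in bes1-1, where 0.271% of all probe sets were called higher and 0.784% in either direction. This is 0.833% of members, so the share of members called was near that of all probe sets. OASA2 was at 5.28, 5.21 and 5.42 in bes1-1 and at 3.72, 4.04 and 4.40 in bes1-3, with WT between them at 4.37, 5.14 and 4.52. The 2 mutants did not overlap and the difference was 1.26 ± 0.22 (SE, adjusted p = 0.0272); without the block the SE was 0.31 and the adjusted p was 0.335.

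**Figure D4:**
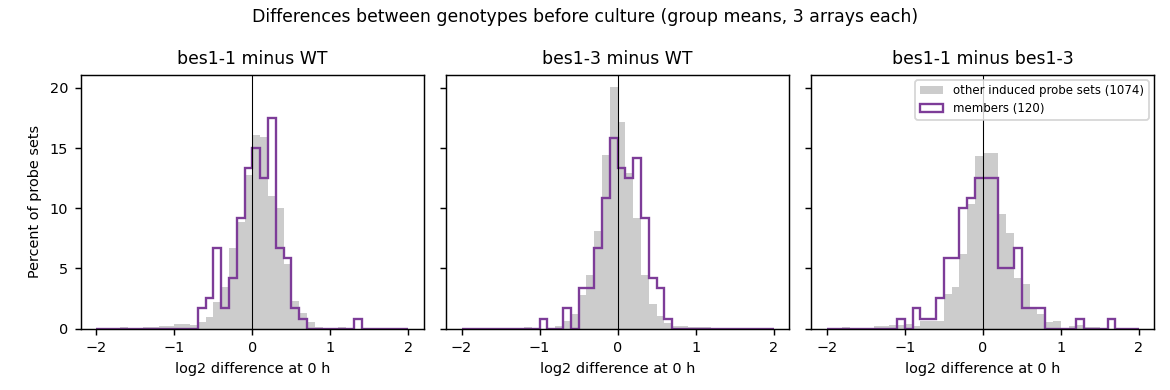
Distribution of log2 differences between genotypes at 0 h (means of 3 arrays) over 120 members (outline) and 1074 other induced probe sets (grey), in percent of each set. The members lie around 0 in all 3 comparisons, with medians of 0.07, 0.04 and -0.01.

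After culture most members had a lower mean in bes1-1 than in bes1-3. The rule used both groups against WT, which bounds both from above, but not against each other. The mean was lower in bes1-1 in 109 members (90.8%, against 80.9% of the other induced and 46.4% of all probe sets) and higher in 11, and the median difference was -0.62, against -0.37 in the other induced probe sets and 0.02 in all probe sets. In the same direction it was -0.59, -0.88 and -0.43 in replicates 1, 2 and 3. In 89 members (74.2%) bes1-1 was lower in all 3 same-numbered replicates, as in 64.2% of the other induced and 16.4% of all probe sets. In 11 members the arrays of the mutants did not overlap with bes1-1 the lower. These are 9.2% of members, where 7.3% of the other induced and 1.46% of all probe sets showed this.

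Limma without a block called 0 members at 72 h between the mutants, where 0.0104% of all probe sets were called, although 25 had an unadjusted p under 0.05, or 20.8% of members against 2.14% of all. With the replicate block 16 were called lower in bes1-1 and 0 higher, where 0.956% of all probe sets were called lower and 0.206% higher. These are 13.3% of members, and the same fit called lower 15.1% of the other induced probe sets, so the share was not larger among members. Within replicates 2 and 3 alone 2 members (1.67%) were called lower in bes1-1, where 0.931% of the other induced and 24 of all 38408 probe sets were called lower. The named results that follow are from the fit with the block, with its SE and adjusted p. In this contrast arrays of the same number deviated together (r = 0.553, 0.271 and 0.299 over all probe sets), but replicates 2 and 3 of different number did so about as much (0.293 and 0.2), while replicate 1 stood apart from both (-0.348 to -0.434).

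AT4G16000 was at 4.70, 6.86 and 7.02 in bes1-1 and at 7.04, 8.4 and 8.52 in bes1-3, with 8.26, 9.64 and 9.62 in WT. The mutants did not overlap, and bes1-1 differed from bes1-3 by -1.79 ± 0.28 (adjusted p = 0.0148). AT5G40020, described above, differed by -1.78 ± 0.31 (adjusted p = 0.023). AT5G07080 was at 6.52, 7.21 and 8.23 in bes1-1 and at 9.04, 8.99 and 8.76 in bes1-3, a difference of -1.61 ± 0.32 (adjusted p = 0.0388) with no overlap. AT4G16015 differed by -1.32 ± 0.17 and AT5G02090 by -1.3 ± 0.17 (adjusted p = 0.0091 in both), and their arrays overlapped between mutants while the order held within each replicate number.

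Of the members with a symbol, NCRK was called, at 5.64, 6.65 and 7.07 in bes1-1 and 6.64, 7.87 and 7.67 in bes1-3, a difference of -0.94 ± 0.15 (adjusted p = 0.0148). The 11 members with the opposite order had differences of 0.07 to 0.59, and none was called. They included BGLU47 at 0.08, WSD1 at 0.44, AT4G29700 at 0.20 and AT4G03930 at 0.59.

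**Figure D5:**
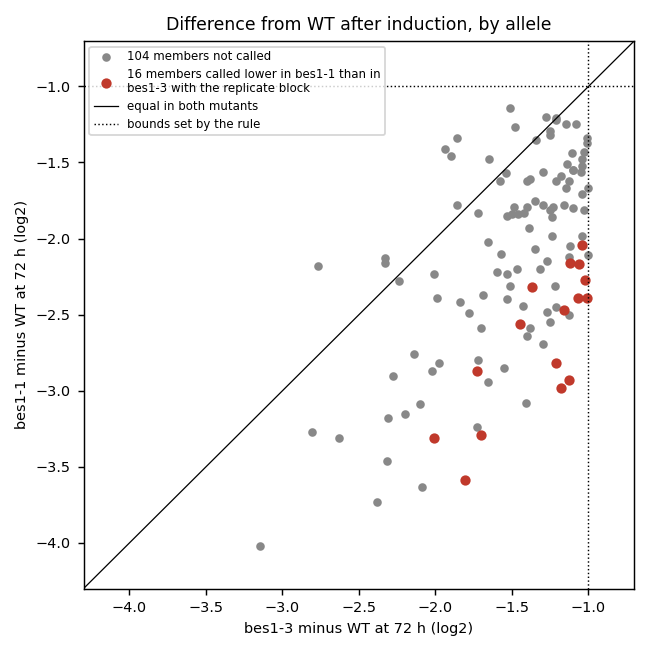
Difference from WT at 72 h (log2, means of 3 arrays) in bes1-1 (vertical) against bes1-3 (horizontal) for the 120 members; both axes share the WT arrays, and dotted lines mark the bounds of the rule. Most points lie under the line of equal difference, and the 16 members called lower in bes1-1 with the replicate block are red.

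The rule cut through continuous values. Just inside the bound on the WT induction were AT4G29700 at 1.5 and AT3G02590 at 1.514, and just outside were JRG21 at 1.458 and AT1G14240 at 1.439. For the bound on bes1-3, AT1G11560 (1.002 below WT) and AT3G23605 (1.004) were inside, and AT3G14360 and AT3G46170 (both 0.997) were outside. For bes1-1, AT5G24080 (1.137) and AT5G49710 (1.202) were inside, and AT1G34060 (0.970) and AT1G16705 (0.936) were outside. With a bound of 0.75 in place of 1 there would be 202 members, and with 1.25 there would be 74.

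In the TAIR10.1 gene order 2 pairs of members lay within 5 protein-coding genes of each other. AT2G31540 and AT2G31550 are adjacent protein-coding genes, AT4G16000 and AT4G16015 lie 2 genes apart, and AT1G05320 is next to AT1G05310, which the rule left out. AT2G31550 rose in WT from 1.58, 1.58 and 1.3 to 4.62, 5.70 and 6.26 and reached 2.05, 3.24 and 3.52 in bes1-1 and 2.83, 4.70 and 3.96 in bes1-3, all under the WT array of the same number. Many members started low: 36 of 120 had a WT mean at 0 h close to background (30.0%, against 17.4% of the other induced probe sets), and none at 72 h. At 72 h 15 were close to background in bes1-1 and 11 in bes1-3, so their differences from WT are uncertain in size.

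Genes of vascular cell types were taken from lists drawn up for this comparison, part of which the rule picked or left out. Of 4 measured genes of xylem cell death, the programmed death of maturing vessel cells, 4 rose in WT. Of these 3 were lower in bes1-1 and 2 in bes1-3 at 72 h by limma, and 3 in each with the block. They include the member AT4G04460, which was at 9.61, 10.76 and 10.48 in WT, 8.11, 7.16 and 8.08 in bes1-1 and 8.58, 9.51 and 9.38 in bes1-3 at 72 h. GAMMA-VPE, a vacuolar processing enzyme gene and the remaining one of the 4, rose by 1.72 in WT and differed by 0.03 and -0.09 in the mutants. The mean log2 level of this list per array was 8.57 to 9.76 in WT, 6.85 to 7.37 in bes1-1 and 7.16 to 8.07 in bes1-3 at 72 h, and 5.07 to 5.93 over all arrays at 0 h. The other 2 genes (ALPHA-VPE and scpl28) are among those the rule left out after they met its numbers, so all 3 genes called lower were fixed by the rule and are no independent evidence of the list's direction.

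The 5 measured genes of the list for xylan and cellulose in secondary walls were IRX15, IRX15-L, GUT2, TBL33 and TBL34. They are xylan genes, and no cellulose gene of the list was among them. All are among the genes left out by name, so their direction is no independent evidence. Of them only IRX15 (-1.58 in bes1-3) met the rule's numbers. IRX15-L (-0.79), GUT2 (-0.38), TBL33 (-0.46) and TBL34 (-0.2) were less than 1 below WT in bes1-3. All 5 rose in WT, and limma called 2 lower in bes1-1 and 0 in bes1-3 at 72 h (5 and 1 at an unadjusted p under 0.05), or 5 and 1 with the block. Of 8 lignin genes, limma called 3 lower in bes1-1 and 0 in bes1-3 (5 and 3 at an unadjusted p under 0.05), or 4 and 3 with the block, which also called 1 higher in bes1-1. The 3 called by limma without the block, HCT, AT5G66390 and BGLU45, are genes that the rule left out by name, and AT5G66390 and BGLU45 met its numbers, so these calls are no independent evidence either. Of the other 5 lignin genes none was called without the block, and with it the peroxidase genes AT5G51890 (-1.23) and AT5G64120 (1.40) were called in bes1-1 and none in bes1-3. In WT AT5G51890 rose by 4.64, while AT5G64120 fell, with a change of -4.24. The median over the 5 wall genes was -1.74 in bes1-1 and -0.46 in bes1-3, beside -2.11 and -1.38 over the members.

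The 9 measured ATG8 genes of autophagy include the member ATG8B and 2 genes left out by name (APG8A and ATG8H), whose calls are no independent evidence. Of the 9, 5 rose in WT, and 8 with the block. At 72 h limma called 0 in either mutant, with 4 and 3 at an unadjusted p under 0.05, and the block called 7 lower in bes1-1 and 6 in bes1-3. The counts with the block include ATG8B, APG8A and ATG8H. Apart from these it called ATG8D, ATG8E, ATG8F and APG8H in bes1-1, and ATG8D, ATG8F and APG8H in bes1-3. ATG8C was called in neither mutant. ATG8G rose by 1.28 in WT and differed by 0.28 and 0.14 in the mutants, with neither called.

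Lists of other cell types were read from the same fits, and no test compared them with the lists above. All 3 procambium and cambium genes (CLE41, CLE44 and LHW) rose in WT, and limma called 0 in either mutant at 72 h with or without the block, with 0 at an unadjusted p under 0.05 without it. Their mean log2 level per array was 9.47 to 10.01 in WT, 9.61 to 10.38 in bes1-1 and 9.44 to 10.22 in bes1-3, with full overlap between genotypes. Of 3 phloem genes limma called 0 in the mutants (1 in bes1-1 and 0 in bes1-3 at an unadjusted p under 0.05). The block called CLE45, a sieve element peptide gene that rose by 3.2 in WT, lower (-1.08) in bes1-1. It also called SWEET11, a sucrose transporter gene that fell in WT (-4.53), higher (1.21) in bes1-1. The remaining phloem gene, OPS, rose by 3.12 in WT and differed by 1.06 and 1.0 in the mutants, not called. Mesophyll photosynthesis genes fell in WT in 4 of 4, and in the mutants at 72 h limma called 0 (0 and 1 at an unadjusted p under 0.05), or 1 lower in bes1-3 with the block; their mean level per array was 8.59 to 9.13 in WT, 7.98 to 9.89 in bes1-1 and 8.15 to 8.75 in bes1-3. Of 3 stomatal genes 2 fell in WT, and in the mutants limma called 0 (1 in each at an unadjusted p under 0.05) and the block 2 lower in each. These were SPCH (-1.33 in bes1-1 and -1.57 in bes1-3) and FMA (-0.64 and -0.79), transcription factors of the stomatal lineage. The SPCH means at 72 h in bes1-1 and bes1-3 (3.36 and 3.11) were close to background, so its differences are uncertain in size. The remaining gene, MUTE, was close to background at 72 h in WT, bes1-1 and bes1-3 (2.25, 2.26 and 2.26). EXPA8, an expansin gene and the measured brassinosteroid-responsive one, rose by 3.57 in WT and differed by 0.51 and 0.17 in the mutants, not called. The part of xylem cell number in the members' values was not tested. No gene of the xylem transcription factor list was matched to a named probe set, so that list was not analysed. The platform's table gave no gene for 20927 probe sets.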

How the data were processed

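The values the authors deposited for 18 Arabidopsis arrays, 1 for each probe set, were taken as log2 signal, with a base inferred from their range. Per the submitters' processing notes, Affymetrix Expression Console made them; version and normalization: not given in the sources used here. Probe sets were named through the platform's table and the TAIR10.1 gene table. The number of arrays limits precision.

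Limma 3.58.1 (R 4.3.3) fitted 6 group means over 18 arrays with 12 residual degrees of freedom; p-values were adjusted by Benjamini-Hochberg over 38408 probe sets and called under 0.05. Members and gene lists were chosen with earlier results of these data known. Named members were those with the largest differences, inductions or shares kept, those called between mutants and all with a symbol; AT1G20680, AT4G03930, AT3G58290, AT5G03820, AT2G31550, AT4G33150, AT4G08160 and AT4G04460 were added after their values were seen. The replicate block was checked over probe sets: same-numbered arrays deviated together (r = 0.172 to 0.553) in every contrast except bes1-1 minus WT at 0 h (0.498, 0.0106 and 0.0925), where pairing is not shown. Replicates 2 and 3 of different number also deviated together (r = 0.0865 to 0.303), in some contrasts more than those of the same number, so the block mainly separates replicate 1. Alternatives were other scalings, filters, fits of only the groups compared, and omission of arrays. Columns of per-sample values not used numbered 0.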

Additional observations from a re-analysis of the deposited data

Results flagged for a closer look

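The following members were set apart because bes1-1 and bes1-3 differed from each other in a test of that difference, by limma with the replicate number as a block; without the block none of them was called. Such a call was made for 16 of 120 members at 72 h, each with bes1-1 the lower. In order of size the log2 differences, bes1-1 minus bes1-3, were -1.80 for AT2G28580 (adjusted p = 0.0472), -1.79 for AT4G16000 (0.0148), -1.78 for AT5G40020 (0.0230), -1.61 for AT5G07080 (0.0388) and -1.59 for AT5G19870 (0.0317). AT2G28580 was at 5.10, 7.90 and 8.31 in bes1-1 and at 7.71, 9.18 and 9.82 in bes1-3, so that its difference in replicate 1 was the largest of the 3. AT5G19870 was at 3.84, 5.36 and 5.94 against 5.73, 7.29 and 6.89.

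The next 5 were AT5G45840 (-1.38), AT4G16015 (-1.32), AT5G60720 (-1.31), AT5G02090 (-1.30) and AT2G41200 (-1.25), with adjusted p-values of 0.0091 to 0.0273. AT5G45840 was at 5.42, 6.83 and 6.97 in bes1-1 and at 6.63, 8.14 and 8.60 in bes1-3. Smaller differences were those of AT4G23500 (-1.14), AT2G40050 (-1.11), AT5G18460 (-1.11), AT3G14170 (-1.05), AT5G56440 (-1.0) and NCRK (-0.94), with adjusted p-values of 0.0148 to 0.0452. AT5G18460 kept -7.5% of the WT induction in bes1-1 and 61.3% in bes1-3. In all 16 the bes1-1 array was the lower in each of the 3 replicate numbers.

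At 0 h OASA2 differed in the opposite direction, by 1.26 (adjusted p = 0.0272 with the block), and at 72 h its mutants overlapped, at 4.39, 4.39 and 5.29 in bes1-1 and 4.64, 5.29 and 5.31 in bes1-3. It was the only member called at 0 h with the block, or 0.833% of members, near the 0.784% of all probe sets called in either direction.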

How the results depend on the processing

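The differences from WT at 72 h of the members named by rule kept their direction under every alternative run for them. So did the 17 differences between mutants called with the block. The rule asked for a lower mutant signal in every replicate, and the call with the block picked the 17. Their direction was thus largely fixed by the choice and is no evidence of stability. Splits of calls over all probe sets did not keep theirs. For bes1-1 minus WT at 72 h, 94 were higher and 230 lower, but 2743 and 2420 with the block, 112 and 92 without bes1-1 replicate 1, 2 and 0 with only the groups compared, and 329 and 1653 with centred arrays. For bes1-3 minus WT at 72 h, 22 and 28 became 1480 and 1327 with the block, 4 and 2 without WT replicate 2, 112 and 451 with centred arrays and 285 and 656 by quantile normalization. The WT induction, 3342 and 4152, became 3615 and 3147 without WT 72 h replicate 1 and 3192 and 3145 without WT 0 h replicate 3. Between mutants 2 and 2 at 72 h became 7 and 96 with centred arrays and 4 and 29 by quantile normalization, and 5 and 22 at 0 h became 14 and 28, 18 and 36, and 4 and 3 without bes1-3 replicate 3. At 0 h bes1-1 minus WT, 2 and 6, became 2 and 1 with only the groups compared, without bes1-1 replicate 2 or without WT replicate 3, and bes1-3 minus WT, 3 and 0, became 3 and 1 with centred arrays and 5 and 1 by quantile normalization. Probe sets called, with arrays centred, only the groups compared, quantile normalization, the replicate block, replicates 2 and 3 alone and the range on omission of an array, were as follows. For bes1-1 minus WT at 0 h (8) they were 13, 3, 13, 41, 11 and 3 to 11. For bes1-3 minus WT at 0 h (3) they were 4, 0, 6, 6, 0 and 2 to 3. For bes1-1 minus bes1-3 at 0 h (27) they were 42, 0, 54, 301, 8 and 7 to 24, and at 72 h (4) they were 103, 2, 33, 446, 70 and 2 to 25. For the WT induction (7494) quantile normalization gave 12352, the block 15250, replicates 2 and 3 alone 11884 and omission 6175 to 7047. For bes1-1 minus WT at 72 h (324) the series was 1982, 2, 2530, 5163, 2018 and 56 to 383, and for bes1-3 minus WT at 72 h (50) it was 563, 0, 941, 2807, 357 and 0 to 65.

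Members called between the mutants at 72 h numbered 0, and 5 with centred arrays, 16 with the replicate block and 2 in replicates 2 and 3. The 5 are 4.17% of members, where 4.56% of the other induced and 96 of all probe sets were called lower. On omission 0 to 2 members were called. The 2, without bes1-1 replicate 3, were among 4 of all probe sets called lower. At 0 h the block called 1 member, or 0.833%, against 0.784% of all probe sets in either direction. The block called no member against WT at 0 h. The 120 members became 202 and 74 with bounds of 0.75 and 1.25, 137 by quantile normalization (119 shared), 138 with centred arrays (113 shared) and 120 to 132 on omission of a replicate number. The bes1-1 share of the WT signal, 23.1%, was 21.1% to 26.1% on omission, highest without replicate 2; the bes1-3 share, 38.3%, was 36.4% with centred arrays and 37.1% to 39.1% on omission. The share of induction kept was 23.7% to 28.7% in bes1-1 and 44.9% to 50% in bes1-3 on omission, 17.5% and 43.3% with centred arrays and 21.6% and 47.8% by quantile normalization. Of the values of named members against WT, 335 moved by less than the replicate spread and 1 by more. Omission of a replicate number could not move a mean of 3 differences that far, so those settings are no test of stability. Of the rescalings, quantile normalization left 56 values within the spread. Centred arrays left 55 within it and moved 1 beyond. The cause of these changes was not tested. Signals close to background at 0 h limit 36 members in WT, and 32 in bes1-1 and 33 in bes1-3, which are partly other members.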
